A study of Monodelphis domestica with 6 samples.

Results

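The genes of the Polycomb complexes, the trithorax methyltransferases, the histone demethylases and the ATP-dependent chromatin remodelers were followed from neonatal skin fibroblasts (neoSFs) of the opossum *Monodelphis domestica* to the induced pluripotent stem cells (monoiPSCs) made from them. Of 44 genes listed by symbol, 39 had a row under that symbol among the 35665 genes of the deposited files, and these 39 are the members counted here. CBX2, BMI1, KDM4A and KDM6B had rows under LOC numbers, were found by gene number through the RefSeq table of the mMonDom1.pri assembly, and are described with their families but left out of the counts. KMT2D was not analysed here. CECR2 has its symbol in the deposited files only, as the RefSeq table lists the same gene number without a name.

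The 2 neoSF libraries were wild-type, untreated primary cultures of female neonatal pups, 1 of the FD2M1 and 1 of the LSD1 inbred strain, expanded for a few passages in serum-containing medium. The 4 monoiPSC libraries were wild-type cells of the same strains, 1 line per strain at passage 15 (P15) and at passage 25 (P25). They had been nucleofected with episomal plasmids for human OCT4, SOX2, NANOG, KLF4, LIN28 and cMYC, a dominant-negative mouse p53 and EBNA1, and were then kept without feeders in medium with LIF at 10 ng/mL, bFGF at 50 ng/mL and a ROCK inhibitor. The neoSF libraries were read in-house as short single-end reads and the monoiPSC libraries by a service as longer paired-end reads, so the effects of cell type, medium and sequencing on a gene cannot be told apart. Both passages of a line derive from the same reprogramming, so the 4 monoiPSC libraries stand for 2 lines, and the p-values measure the spread between these libraries.

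Polycomb repressive complex 2 (PRC2) methylates lysine 27 of histone H3, a mark of silenced genes, and Polycomb repressive complex 1 (PRC1) binds this mark and ubiquitinates histone H2A. The trithorax methyltransferases act in the other direction by methylating lysine 4 of histone H3 at promoters and enhancers. The remodelers use ATP to slide or evict nucleosomes, and in eutherian stem cells many of these complexes are known to keep developmental genes silent but inducible. Many subunits come in paralogs that exclude each other within a complex, so the balance of such a pair bears on which form of the complex a cell can make.

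Total counts were 14278794 and 16982978 in the neoSFs and 28684754 to 35564261 in the monoiPSCs, and levels are given as the normalized read count (NRC) of the deposited values, on which 3 counts correspond to 4.75 to 5.85 in the neoSFs and 1.55 to 1.88 in the monoiPSCs. Intervals of counting error and floors do not cover PCR copies. A gene was called differentially expressed (DE) if it changed 2-fold or more and its p from the edgeR quasi-likelihood test, adjusted by Benjamini-Hochberg over 13072 genes, was 0.05 or lower. The genes tested were those that reached an NRC of 20 in both neoSFs or in all 4 monoiPSCs. The labels held against marker genes, with 15 of 16 fibroblast markers DE and lower and 10 of 10 pluripotency markers DE and higher in the monoiPSCs. Markers near 0 in one group passed the filter only through the other, which fixes their direction. The summed NRC of the fibroblast list was 2307404 and 2787084 in the neoSFs and 18513 to 23541 in the monoiPSCs, and that of the pluripotency list was 187.0 and 304.4 in the neoSFs and 15051 to 18845 in the monoiPSCs. Other lists also moved with the groups or within them. The summed NRC of 14 proliferation genes was 6325 and 8911 in the neoSFs and 58227 to 79490 in the monoiPSCs, and all 14 were DE and higher. Of 6 neural genes, 3 were DE and higher, with summed NRCs of 7305 and 25792 in the neoSFs and 7085 to 15948 in the monoiPSCs. Of 5 skeletal muscle genes, MYOG was DE and higher and ACTC1 DE and lower. The list summed to an NRC of 17524 and 21803 in the neoSFs, mostly from ACTC1, and 1971 to 16772 in the monoiPSCs. The highest of the monoiPSC sums was that of LSD1 at P25. Without this library 16 members were DE and higher and 4 DE and lower, with AEBP2 in and PCGF2 out of the 16. Of 5 melanocyte genes, 2 could be tested and DCT was DE and higher, and the list summed to 256.7 and 406.8 in the neoSFs and to 4604 to 15571 in the monoiPSCs. Most of the monoiPSC sum was DCT alone, at an NRC of 4372 to 15279, and DCT passed the filter through the monoiPSCs only. MITF was not DE (log2 fold change -0.11, adjusted p = 0.764). TYR, TYRP1 and MLANA had an NRC of at most 21.8 in every library. The 3 keratinocyte genes summed to 56.6 and 156.0 in the neoSFs and to at most 6.73 in the monoiPSCs, where KRT14 was at 0 and DSG3, the only 1 of them tested, was DE and lower, and the 5 endothelial genes to 118.5 and 234.5 in the neoSFs and 66.8 to 139.9 in the monoiPSCs, with CDH5 at 0 in the neoSFs and ERG at 0 in the monoiPSCs. The part of these cells and of proliferation in the results below was not tested. In bulk RNA, fewer cells of a type and less RNA per cell cannot be told apart.

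The question of the main comparison was how this machinery differs between the fibroblast and the reprogrammed state. Of the 39 members, 20 were DE, which is 51.3% against 45.9% of all genes tested, with 16 higher and 4 lower in monoiPSCs. Of the 19 members that were not DE, 7 passed the p threshold and changed less than 2-fold. All 39 members passed the filter on low values, CECR2 through the monoiPSCs only and CBX7 through the neoSFs only. CECR2, which is 1 of the 16, could enter the test only by being high in the monoiPSCs, so its direction was fixed by the filter. The share of members that were DE and higher was 41.0%, against 24.3% of all genes tested, and the share that were DE and lower was 10.3%, against 21.6%. For 23 members the lowest monoiPSC library was above the higher neoSF library, which is 59.0% against 36.1% of all genes tested, and for 6 members the groups were apart in the other direction, which is 15.4% against 37.1%. The members had a median log2 fold change of 0.70, beside 0.08 for all genes tested. Since the members were chosen with results of these libraries known, these shares are a description. In 25 members all 4 monoiPSC libraries were above the neoSFs of their own strain, in 7 none was, and in 7 the signs were mixed. Of all genes tested, 39.4% had all 4 above and 40.1% none.

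**Figure D1:**
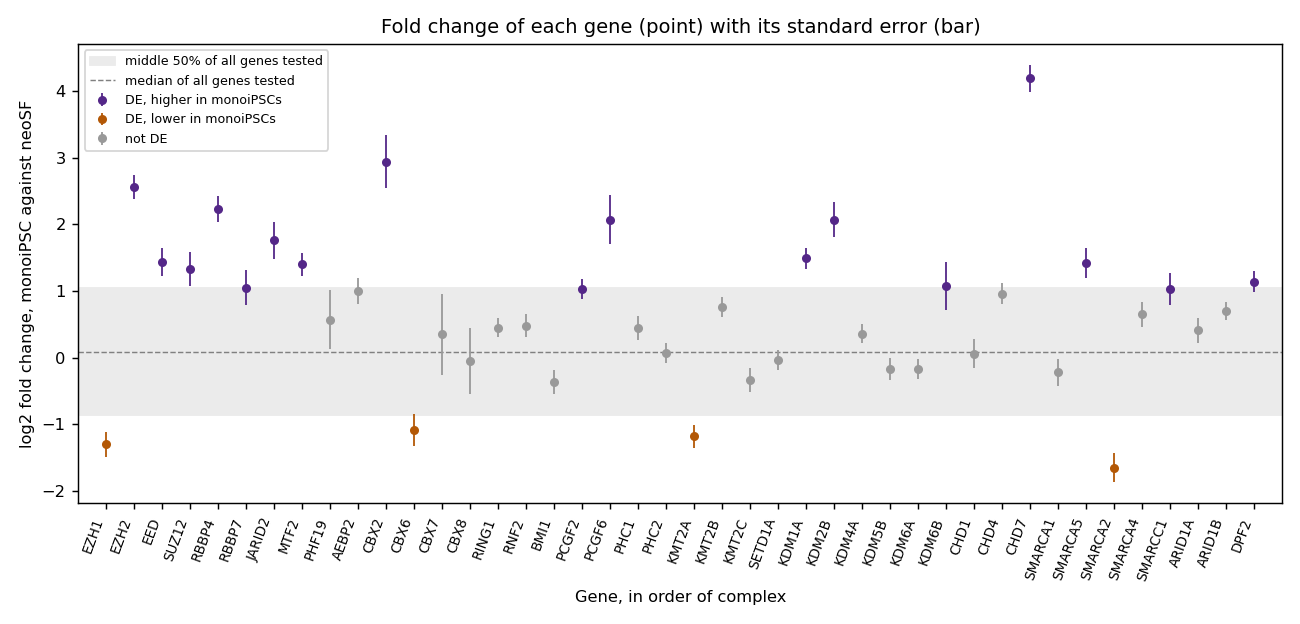
log2 fold change of monoiPSCs against neoSFs for each gene, in order of complex, with its standard error as a bar; the grey band holds the middle 50% of all 13072 genes tested, from -0.86 to 1.04, and the dashed line is their median of 0.08. Purple genes were DE and higher and orange genes DE and lower; CECR2, with 0 counts in both neoSF libraries, is left out. CHD7 stands highest at 4.19 and SMARCA2 lowest at -1.65.

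Most PRC2 genes rose, and the catalytic paralogs EZH2 and EZH1 moved in opposite directions. Of the 10 PRC2 members, 7 were DE and higher, which is 70% against 24.3% of all genes tested. EZH1 was DE and lower, and AEBP2 and PHF19 were not DE. The summed proliferation genes were higher in the same 4 libraries, and their part in these changes was not tested. Outside PRC2, 31% of the members were DE and higher. The counts of the smaller groups below are descriptions, to be read beside 24.3% of all genes tested DE and higher and 21.6% DE and lower. In the values that follow, neoSFs are given in the order FD2M1 and LSD1, and monoiPSCs in the order FD2M1 at P15, LSD1 at P15, FD2M1 at P25 and LSD1 at P25. EZH2 (gene 100013390, chromosome 8 of MonDom5), the main methyltransferase of PRC2 in dividing cells, had an NRC of 621.5 and 519.1 in the neoSFs and 3479, 3124, 3269 and 2761 in the monoiPSCs. All 4 monoiPSC libraries were far above both neoSF libraries, and EZH2 rose 5.91-fold (log2 fold change 2.56, standard error 0.18, adjusted p = 3.84e-05). EZH1 (gene 100010738, chromosome 2), its paralog, which is known from non-dividing tissue, had an NRC of 733.2 and 585.0 in the neoSFs and 241.6, 261.5, 268.6 and 233.3 in the monoiPSCs. It fell in every monoiPSC library (log2 fold change -1.30, standard error 0.19, adjusted p = 0.000809), and the 4 libraries of monoiPSCs differed little, with a coefficient of variation (CV) of 6.58%.

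EED (gene 100026010, chromosome 4), which reads the methyl mark and stimulates the enzyme, had an NRC of 418.2 and 335.7 in the neoSFs and 1067, 814.5, 1085 and 855.8 in the monoiPSCs. It rose 2.71-fold (log2 fold change 1.44, standard error 0.21, adjusted p = 0.000831), and no library of the groups overlapped. SUZ12 (gene 100018909, chromosome 2), the scaffold of PRC2, had an NRC of 1422 and 1312 in the neoSFs and 3657, 2874, 4044 and 2272 in the monoiPSCs. Its rise of 2.51-fold (log2 fold change 1.33, standard error 0.25, adjusted p = 0.00304) came with a larger spread within the monoiPSCs, where both LSD1 libraries were the lowest. The histone chaperones RBBP4 and RBBP7 are shared by PRC2 with other complexes, NuRD among them. RBBP4 (gene 100025905, chromosome 4) had an NRC of 1847 and 1729 in the neoSFs and 8910, 6377, 8651 and 7436 in the monoiPSCs, a rise of 4.68-fold (log2 fold change 2.23, standard error 0.20, adjusted p = 0.000108). RBBP7 (gene 100016649, chromosome 7) had an NRC of 1639 and 1106 in the neoSFs and 3361, 2209, 2887 and 2174 in the monoiPSCs. The groups did not overlap (log2 fold change 1.05, standard error 0.26, adjusted p = 0.00912), but RBBP7 lies at the 2-fold limit and was not DE with RLE scaling, DESeq2, limma or without 1 library (FD2M1 monoiPSC P15 or LSD1 neoSF).

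The accessory subunits split PRC2 into a form with MTF2, PHF19 or PHF1, which bind CpG-rich DNA, and a form with JARID2 and AEBP2. MTF2 (gene 100032821, chromosome 2) had an NRC of 1751 and 1658 in the neoSFs and 4676, 3761, 4684 and 3779 in the monoiPSCs, a rise of 2.64-fold (log2 fold change 1.40, standard error 0.17, adjusted p = 0.000392). JARID2 (gene 100025851, chromosome 3), a catalytically inactive relative of the histone demethylases, had an NRC of 420.1 and 821.0 in the neoSFs and 1962, 2121, 2028 and 1813 in the monoiPSCs. All monoiPSC libraries were above both neoSF libraries (log2 fold change 1.76, standard error 0.28, adjusted p = 0.00122), and its size varied with the choice of fibroblast library, with a log2 fold change of 2.36 when the LSD1 neoSFs were left out and 1.37 when the FD2M1 neoSFs were. AEBP2, with an NRC of 487.4 and 410.2 in the neoSFs and 954.8, 817.2, 869.0 and 718.0 in the monoiPSCs, was higher in each monoiPSC library and just under the 2-fold limit (log2 fold change 1.00, standard error 0.19, adjusted p = 0.00267). The NRC of PHF19 was 225.2 and 74.7 in the neoSFs and 197.7, 169.4, 201.4 and 258.0 in the monoiPSCs. The neoSF libraries stood further apart than the monoiPSC libraries, the groups overlapped, and PHF19 was not DE (log2 fold change 0.57, standard error 0.44, adjusted p = 0.289), but became DE at a log2 fold change of 1.57 without the FD2M1 neoSFs.

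**Figure D2:**
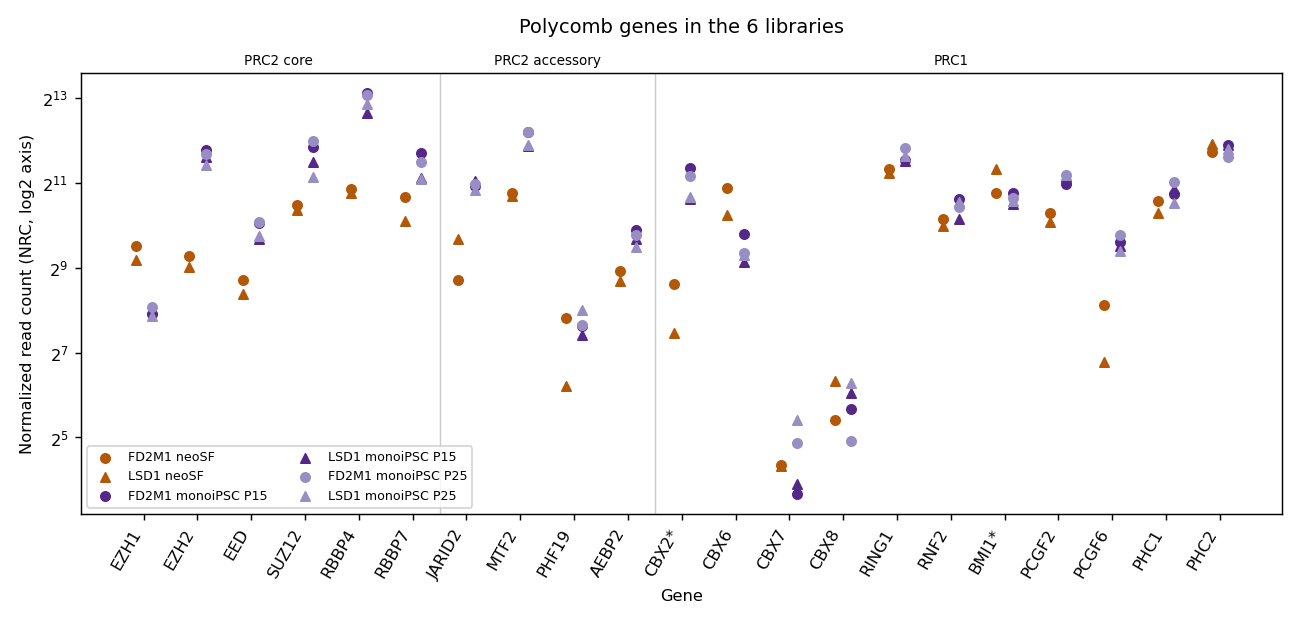
NRC of each Polycomb gene on a log2 axis, grouped by complex, with 1 point for each of the 6 libraries (orange for neoSFs, purple for monoiPSCs, circles for FD2M1 and triangles for LSD1). Asterisks mark genes found by gene number. EZH2, EED, SUZ12, RBBP4 and MTF2 lie higher in all 4 monoiPSC libraries and EZH1 and CBX6 lower, while RING1, RNF2, PHC1 and PHC2 stay close to the neoSFs.

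In PRC1 the DE members were PCGF and CBX genes, and the E3 ligases RING1 and RNF2 were not DE. Of the 9 PRC1 members, PCGF2 and PCGF6 were DE and higher, CBX6 was DE and lower, and 6 were not DE. Among all genes tested, 24.3% were DE and higher and 21.6% DE and lower. PCGF6 (gene 100028692, chromosome 1), which defines a variant PRC1 bound with E2F6 and MGA, had an NRC of 280.0 and 109.2 in the neoSFs and 779.3, 726.4, 874.4 and 678.3 in the monoiPSCs. It rose 4.21-fold (log2 fold change 2.07, standard error 0.37, adjusted p = 0.00228), with a neoSF value in FD2M1 well above that in LSD1 and a log2 fold change of 1.56 without the LSD1 neoSFs and 2.91 without the FD2M1 neoSFs. PCGF2 (gene 100017034, chromosome 2), one of the PCGF proteins of canonical PRC1, had an NRC of 1248 and 1081 in the neoSFs and 1998, 2249, 2343 and 2320 in the monoiPSCs. No libraries overlapped (log2 fold change 1.03, standard error 0.15, adjusted p = 0.000766), yet PCGF2 was at the 2-fold limit and was not DE with RLE scaling, DESeq2, limma or without LSD1 monoiPSC P25 or the LSD1 neoSFs. BMI1, the other main PCGF protein of canonical PRC1, was found by gene number and had an NRC of 1743 and 2568 in the neoSFs and 1728, 1445, 1591 and 1518 in the monoiPSCs. All its monoiPSC libraries were below both neoSF libraries with 1728 against 1743 as the nearest values, and it was not DE (log2 fold change -0.36, standard error 0.18, adjusted p = 0.122).

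The CBX proteins bring canonical PRC1 to the methyl mark of PRC2. CBX2, found by gene number (gene 100026431, chromosome 2), had an NRC of 392.4 and 177.1 in the neoSFs and 2618, 1577, 2303 and 1632 in the monoiPSCs. It rose 7.66-fold (log2 fold change 2.94, standard error 0.40, adjusted p = 0.000637), and its log2 fold change was 2.49 without the LSD1 neoSFs and 3.62 without the FD2M1 neoSFs. CBX6 (gene 100013119, chromosome 8) had an NRC of 1891 and 1221 in the neoSFs and 882.9, 566.4, 650.5 and 626.0 in the monoiPSCs. It fell in every library (log2 fold change -1.09, standard error 0.24, adjusted p = 0.00565) and was not DE without the FD2M1 neoSFs, at a log2 fold change of -0.74 and an adjusted p of 0.0561. CBX7 and CBX8 were low in both cell types. The NRC of CBX7 was 20.5 and 20.1 in the neoSFs and 12.7, 15, 29.2 and 42.8 in the monoiPSCs, from 11 and 13 counts in the neoSFs, and that of CBX8 was 42.4 and 80.3 in the neoSFs and 50.6, 66.5, 30.4 and 78.2 in the monoiPSCs. The groups of both genes overlapped and neither was DE (log2 fold change 0.35, adjusted p = 0.64 for CBX7 and log2 fold change -0.05, adjusted p = 0.936 for CBX8). Of the E3 ligases, RING1 had an NRC of 2574 and 2389 in the neoSFs and 2992, 2950, 3600 and 3185 in the monoiPSCs and RNF2 of 1131 and 1015 in the neoSFs and 1584, 1141, 1385 and 1490 in the monoiPSCs. Both were past the p threshold and well under 2-fold (log2 fold changes 0.45 and 0.48, adjusted p = 0.0276 and 0.0457). Neither passed it with limma (adjusted p = 0.0974 and 0.128) or with the passages summed (adjusted p = 0.0679 and 0.0736). RNF2 also missed it with RLE scaling (adjusted p = 0.0658) and DESeq2 (adjusted p = 0.0645). The polyhomeotic scaffolds PHC1 and PHC2 overlapped between the groups, at log2 fold changes of 0.44 and 0.07 (adjusted p = 0.0656 and 0.712).

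Of the 4 trithorax methyltransferase members, KMT2A was DE and lower and KMT2B, KMT2C and SETD1A were not DE. Of all genes tested, 24.3% were DE and higher and 21.6% DE and lower, so nothing is read from counts among 4 genes. The 4 members had a median log2 fold change of -0.18, beside 0.08 for all genes tested. KMT2A (gene 100031440, chromosome 4), the MLL protein known for maintaining HOX expression, had an NRC of 3740 and 3064 in the neoSFs and 1435, 1680, 1327 and 1189 in the monoiPSCs. Every monoiPSC library was below both neoSF libraries (log2 fold change -1.18, standard error 0.17, adjusted p = 0.000914). KMT2B, its closest paralog, had an NRC of 1724 and 1354 in the neoSFs and 2526, 2411, 2543 and 2260 in the monoiPSCs and was higher in each monoiPSC library, past the p threshold but under 2-fold (log2 fold change 0.76, standard error 0.15, adjusted p = 0.00397). KMT2C, an enhancer methyltransferase, had an NRC of 2391 and 1588 in the neoSFs and 1509, 1539, 1432 and 1414 in the monoiPSCs, below both neoSF libraries in each monoiPSC library and not DE (log2 fold change -0.34, standard error 0.18, adjusted p = 0.137). SETD1A, the catalytic subunit of a promoter complex, overlapped between the groups (log2 fold change -0.03, standard error 0.15, adjusted p = 0.874).

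Of the 4 demethylase members, KDM1A and KDM2B were DE and higher and KDM5B and KDM6A were not DE. KDM1A (gene 100025161, chromosome 4), which removes methyl groups from lysine 4 of histone H3 and whose protein shares the name LSD1 with the strain by coincidence, had an NRC of 1881 and 1793 in the neoSFs and 5531, 4579, 4855 and 4353 in the monoiPSCs. It rose 2.81-fold (log2 fold change 1.49, standard error 0.16, adjusted p = 0.000242). KDM2B (gene 100015947, chromosome 3), which binds unmethylated CpG islands and brings the PCGF1 form of PRC1 to them, had an NRC of 476.1 and 441.1 in the neoSFs and 2231, 1533, 2100 and 1351 in the monoiPSCs. The rise was 4.2-fold (log2 fold change 2.07, standard error 0.26, adjusted p = 0.000438), and within the monoiPSCs both LSD1 libraries were the lowest. KDM5B, which acts on trimethylated lysine 4, overlapped between the groups (log2 fold change -0.17, standard error 0.17, adjusted p = 0.407). KDM6A, which removes the PRC2 mark, had an NRC of 922.2 and 903.7 in the neoSFs and 854.9, 703.9, 767.4 and 723.6 in the monoiPSCs and a log2 fold change of -0.17 (adjusted p = 0.363). Its paralog KDM6B, found by gene number, had an NRC of 43.6 and 84 in the neoSFs and 136.9, 131.7, 118.3 and 119.2 in the monoiPSCs. KDM6B was DE and higher (log2 fold change 1.08, standard error 0.36, adjusted p = 0.0319) but rests on few counts in the neoSFs and was not DE when the passages were summed or when FD2M1 P15, LSD1 P15, FD2M1 P25 or the FD2M1 neoSFs were left out. KDM4A, also found by gene number, was not DE (log2 fold change 0.36, standard error 0.14, adjusted p = 0.0616).

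**Figure D3:**
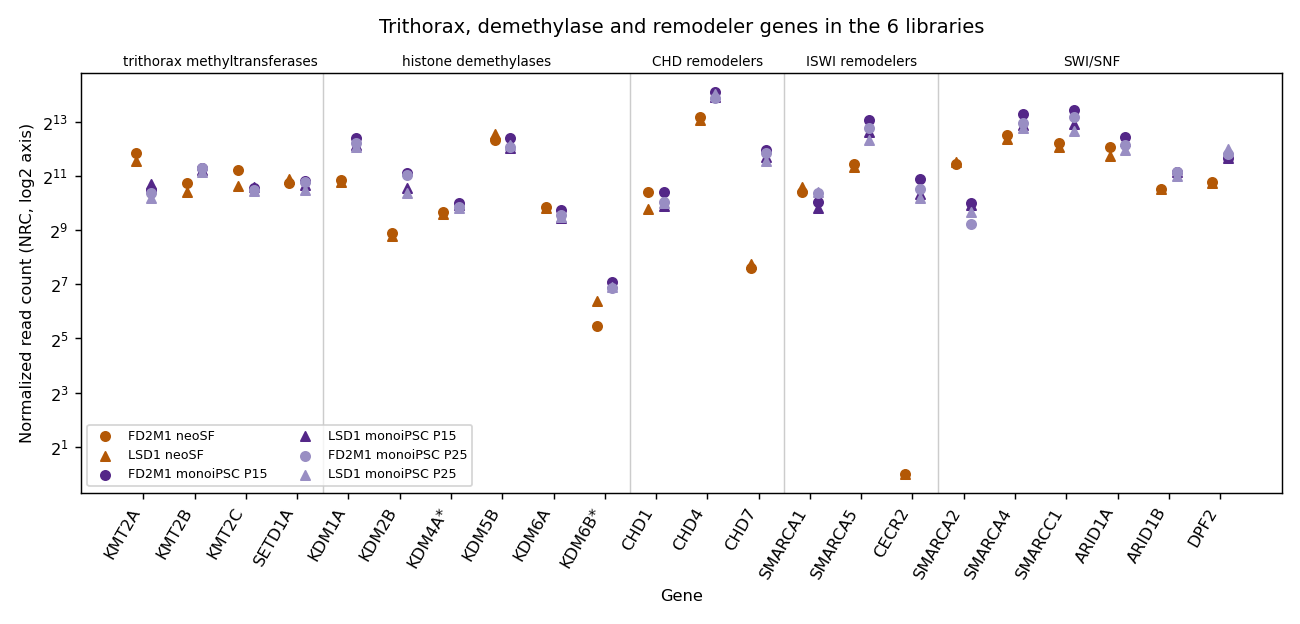
NRC of each trithorax, demethylase and remodeler gene on a log2 axis, with 1 point per library as in the plot of Polycomb genes; asterisks mark genes found by gene number, and values of 0 are drawn at 1. CHD7 and CECR2 show the widest gaps between neoSFs and monoiPSCs, and SMARCA2 and KMT2A lie lower in all 4 monoiPSC libraries.

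Of the 3 CHD members CHD7 was DE and higher, and CHD7 and the ISWI partner CECR2 had the largest log2 fold changes of all members. CHD7 (gene 100022095, chromosome 3), an enhancer-bound remodeler whose loss causes CHARGE syndrome in humans, had an NRC of 193.8 and 216.7 in the neoSFs and 3979, 3362, 3681 and 3045 in the monoiPSCs. It rose 18.3-fold (log2 fold change 4.19, standard error 0.20, adjusted p = 1.24e-05), with a lower signed log2 fold change in 94.1% of the genes tested, those that fell included, and its log2 fold change stayed between 4.12 and 4.30 without any 1 library. CHD4, the ATPase of the NuRD deacetylase complex, had an NRC of 9404 and 8623 in the neoSFs and 17825, 15583, 15340 and 16926 in the monoiPSCs. It was higher in each monoiPSC library and just under 2-fold (log2 fold change 0.96, standard error 0.16, adjusted p = 0.00157). CHD1, a remodeler linked to transcription elongation, overlapped between the groups (log2 fold change 0.06, standard error 0.22, adjusted p = 0.815).

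Of the ISWI members, CECR2 and SMARCA5 rose and SMARCA1 was not DE. CECR2 (gene 100021731, chromosome 8), a bromodomain protein that partners the ISWI ATPases, was at 0 counts in both neoSF libraries after rounding and had an NRC of 1888, 1316, 1465 and 1185 in the monoiPSCs. With the neoSFs set to 3 counts per library it was at least 268.1-fold higher on TMM-scaled counts, given as a description, since CECR2 passed the filter through the monoiPSCs only. SMARCA5 (gene 100026670, chromosome 5), the ISWI ATPase of proliferating cells, had an NRC of 2824 and 2623 in the neoSFs and 8624, 6318, 7094 and 5213 in the monoiPSCs, a rise of 2.67-fold (log2 fold change 1.42, standard error 0.23, adjusted p = 0.00143). SMARCA1, its paralog, had an NRC of 1353 and 1543 in the neoSFs and 1061, 904.4, 1339 and 1370 in the monoiPSCs. It was below the neoSFs of its own strain in all 4 monoiPSC libraries, by 0.01 on the log2 scale at the least, while the groups overlapped (log2 fold change -0.22, standard error 0.20, adjusted p = 0.378).

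Of the 6 SWI/SNF members, SMARCC1 and DPF2 were DE and higher, the ATPase SMARCA2 was DE and lower, and SMARCA4, ARID1A and ARID1B were not DE. Among all genes tested, 24.3% were DE and higher and 21.6% DE and lower. SMARCA2 (gene 100016256, chromosome 6), the ATPase known from differentiated cells, had an NRC of 2779 and 2990 in the neoSFs and 1035, 973.2, 601.3 and 825.1 in the monoiPSCs. It fell in every monoiPSC library (log2 fold change -1.65, standard error 0.22, adjusted p = 0.00058). SMARCA4, the ATPase of the embryonic stem cell form in eutherians, had an NRC of 5857 and 5376 in the neoSFs and 10029, 7732, 8099 and 7088 in the monoiPSCs, above both neoSF libraries in each monoiPSC library, past the p threshold and under 2-fold (log2 fold change 0.65, standard error 0.19, adjusted p = 0.0183). SMARCC1 (gene 100018340, chromosome 6), a scaffold subunit of the same form, had an NRC of 4851 and 4353 in the neoSFs and 11361, 7874, 9337 and 6621 in the monoiPSCs. It was DE and higher at the 2-fold limit (log2 fold change 1.03, standard error 0.24, adjusted p = 0.00769) and was not DE with RLE scaling, DESeq2, limma or without FD2M1 at P15, FD2M1 at P25 or the LSD1 neoSFs. DPF2 (gene 100017164, chromosome 8), a histone-reading subunit, had an NRC of 1772 and 1705 in the neoSFs and 3266, 3279, 3672 and 4148 in the monoiPSCs, a rise of 2.2-fold (log2 fold change 1.14, standard error 0.16, adjusted p = 0.000719). Of the paralogs that carry the AT-rich interaction domain, ARID1A overlapped between the groups (log2 fold change 0.41, standard error 0.19, adjusted p = 0.0981) and ARID1B was higher in each monoiPSC library and under 2-fold (log2 fold change 0.70, standard error 0.13, adjusted p = 0.00274).

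A ratio of 2 genes within a library does not depend on how the library is scaled, so the balance of 13 of 15 listed gene pairs was compared on the log2 ratio of counts. The other 2 pairs hold KMT2D or SMARCC2 and were not analysed here. The ratio also holds the lengths of the genes and only its difference between the groups is read. Read length and pairing differed between the groups as well, and their part in the ratios was not tested. In 8 of the 13 pairs the ranges of the groups were apart (two-sided exact permutation p = 0.0667 for each, the smallest that 15 splits of 4 libraries against 2 allow, and 0.108 after adjustment over the 13 pairs). The splits count both passages of a line as separate libraries, although the 4 monoiPSC libraries stand for 2 lines. Of single genes tested, 36.1% were apart upward and 37.1% downward, so the count of pairs is a description and nothing is read from it. For EZH2 over EZH1 the log2 ratio was -0.24 and -0.17 in the neoSFs and 3.85, 3.58, 3.60 and 3.56 in the monoiPSCs. The balance moved 3.85 toward EZH2, a 14.4-fold change, beside an SD of 0.05 in the neoSFs and 0.13 in the monoiPSCs. For CBX2 over CBX7 it was 4.13 and 3.06 in the neoSFs and 7.63, 6.67, 6.27 and 5.25 in the monoiPSCs, a difference of 2.86 with a wide spread between the monoiPSC libraries. CBX7 was at few counts in this pair. For SMARCA4 over SMARCA2 it was 1.08 and 0.85 in the neoSFs and 3.28, 2.99, 3.75 and 3.10 in the monoiPSCs, a difference of 2.32.

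The balance of KMT2A over KMT2B differed by -1.95, toward KMT2B, with a log2 ratio of 1.12 and 1.18 in the neoSFs and -0.82, -0.52, -0.94 and -0.93 in the monoiPSCs. It moved toward SMARCA5 from SMARCA1 by 1.63, toward PCGF2 from BMI1 by 1.37 and toward RBBP4 from RBBP7 by 1.17. For KDM6A over KDM6B the difference was -1.32. The other 5 pairs overlapped between the groups. Of these, RNF2 over RING1 differed by 0.02, with an SD of 0.22 in the monoiPSCs, ARID1A over ARID1B by -0.29, PHC1 over PHC2 by 0.37, MTF2 over PHF19 by 0.65 and CBX8 over CBX6 by 1.01. The last of these was 0.25 without the FD2M1 neoSFs and 1.77 without the LSD1 neoSFs, that of MTF2 over PHF19 was -0.10 and 1.40, that of PHC1 over PHC2 was 0.60 and 0.14, and that of ARID1A over ARID1B was -0.13 and -0.46, in the same order. KDM6A over KDM6B differed by -0.83 and -1.81 in that order.

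**Figure D4:**
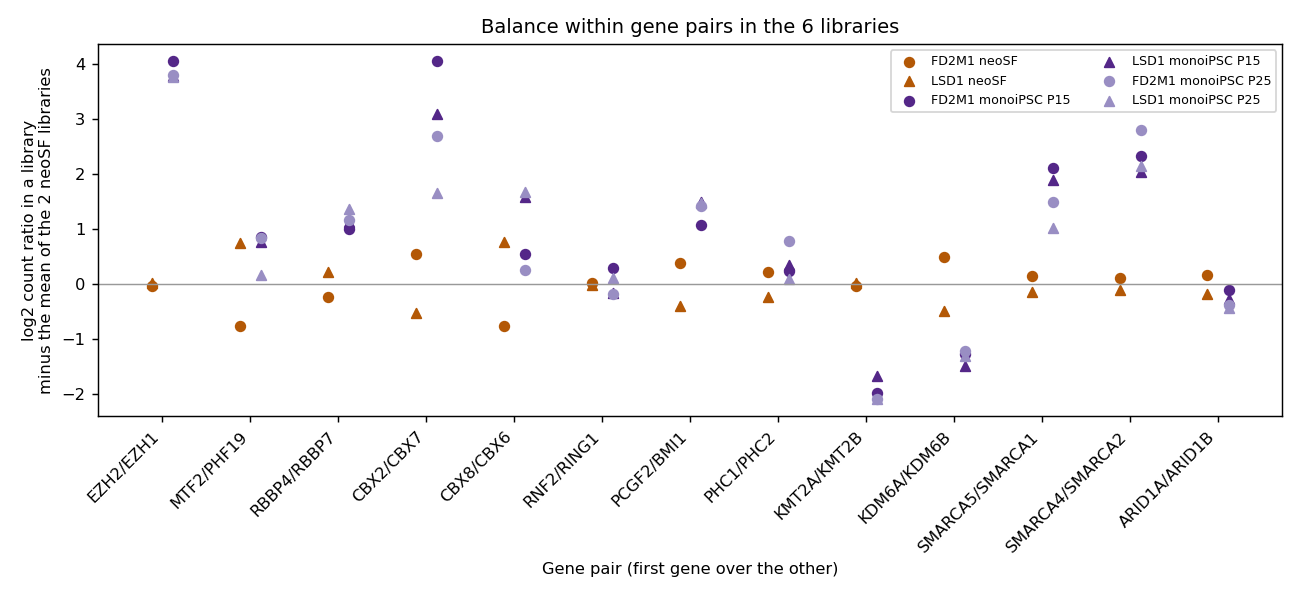
log2 ratio of counts within 13 gene pairs, shown for each of the 6 libraries after subtracting the mean of the 2 neoSF libraries, so that 0 is the balance of the neoSFs; colours and shapes as in the plot of Polycomb genes. The 4 monoiPSC libraries have a mean of 3.85 (SD 0.13) for EZH2 over EZH1 and of 2.32 (SD 0.34) for SMARCA4 over SMARCA2. For RNF2 over RING1 they scatter around 0, with a mean of 0.02 (SD 0.22).

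The members were next set beside a further list of chromatin genes. It holds other subunits of these complexes, relatives of the enzymes, the H2A deubiquitinase complex, and INO80 and other remodelers. Of its 112 genes, 102 had a row and 101 could be tested. Of these, 24 were DE and higher and 9 DE and lower, which is 23.8% and 8.91%, beside 24.3% and 21.6% of all genes tested, and their log2 fold changes had a median of 0.20. The share that rose was thus near that of all genes. In each complex or family of this list, the DE genes with the highest and the lowest log2 fold change are named. Both other PRC2 subunits that were DE had risen, EPOP, found by gene number (log2 fold change 1.17, adjusted p = 0.00358), and PHF1 (log2 fold change 1.05, adjusted p = 0.00979). In PRC1, SCML2, a histone-binding partner, had an NRC of 107.5 and 111.8 in the neoSFs and 2612, 1589, 2432 and 1184 in the monoiPSCs and rose 18.9-fold (log2 fold change 4.24, standard error 0.41, adjusted p = 0.000149), while the scaffold PHC3 had an NRC of 807.3 and 575.6 in the neoSFs and 117.5, 99.9, 122.5 and 109.4 in the monoiPSCs and was lower in every monoiPSC library (log2 fold change -2.53, standard error 0.22, adjusted p = 9.25e-05). ASXL2, a cofactor of the H2A deubiquitinase, fell (log2 fold change -1.53, standard error 0.18, adjusted p = 0.000384) and was the only DE gene of the 4 tested in that complex.

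Around the trithorax enzymes, PSIP1, which tethers KMT2A to chromatin, rose 4.62-fold (log2 fold change 2.21, standard error 0.22, adjusted p = 0.000175) and ASH1L, a methyltransferase of lysine 36, fell (log2 fold change -1.50, standard error 0.16, adjusted p = 0.000212). The demethylase KDM7A rose 2.59-fold (log2 fold change 1.37, standard error 0.20, adjusted p = 0.000933), and KDM1B, the paralog of KDM1A, fell (log2 fold change -1.69, standard error 0.27, adjusted p = 0.00132). Among the other CHD remodelers and the CHD partners, HDAC1, the deacetylase of NuRD, had an NRC of 2813 and 2398 in the neoSFs and 13336, 8796, 12056 and 9397 in the monoiPSCs (log2 fold change 2.16, standard error 0.24, adjusted p = 0.000251). The remodeler CHD9 fell (log2 fold change -1.60, standard error 0.17, adjusted p = 0.000191). CHRAC1, a small histone-fold subunit of an ISWI complex, rose 3.81-fold (log2 fold change 1.93, standard error 0.30, adjusted p = 0.00123). HELLS, a remodeler needed for DNA methylation in other mammals, had an NRC of 402.1 and 212.7 in the neoSFs and 3355, 2293, 3200 and 1748 in the monoiPSCs (log2 fold change 3.21, standard error 0.40, adjusted p = 0.00043), and RUVBL1, an ATPase of the INO80 complex, rose 2.32-fold (log2 fold change 1.21, standard error 0.15, adjusted p = 0.000366).

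In SWI/SNF, 7 of 21 partners were DE and higher and 1, BCL11B, was DE and lower, beside 24.3% and 21.6% of all genes tested. DPF3 and BCL11B have the highest and the lowest fitted change of these partners, but each passed the filter only through the group where it is high, so their values are a description with no test. DPF3 had an NRC of 8.78 and 6.86 in the neoSFs and 223.8, 127.4, 132.6 and 175.3 in the monoiPSCs, and BCL11B of 452.2 and 777.7 in the neoSFs and 70.2, 17.9, 44.6 and 89.1 in the monoiPSCs. DPF3 is known with DPF1, ACTL6B and SS18L1 from the SWI/SNF form of neurons, and the other three, named after their values were seen, were DE and higher too (log2 fold changes 2.01, 1.73 and 1.57). Their mean NRCs in the monoiPSCs were low, at 145.8 for DPF1, 73.1 for ACTL6B and 130.5 for SS18L1. This choice leaves out BCL11B and BCL11A of the same list, which did not rise. BCL11A was not DE (log2 fold change -0.06, adjusted p = 0.892). Of the 6 neural genes listed, ELAVL3, TUBB3 and DCX were higher in every monoiPSC library, NES was lower in each than in the neoSFs of its strain (log2 fold change -1.16, adjusted p = 0.0996), and PAX6 and SOX1 did not pass the filter. Among the monoiPSCs only LSD1 at P25 was under the limit. PAX6 had an NRC of 0 and 10.6 in the neoSFs and 140.1, 41.3, 24.5 and 2.06 in the monoiPSCs. SOX1 had 22.4 and 9.5 in the neoSFs and 202.6, 109.3, 84.1 and 18 in the monoiPSCs. ELAVL3, which passed the filter through the monoiPSCs only, was at 0 counts in both neoSF libraries and had an NRC of 571.2, 360.1, 455.7 and 912.5 in the monoiPSCs. The part of neural transcription in these subunits was not tested. ACTL6A, the paralog of ACTL6B in dividing cells, rose as well (log2 fold change 1.57, adjusted p = 0.000187).

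Within the monoiPSCs, the question was whether the members moved with passage or differed between the lines. The CV across the 4 monoiPSC libraries had a median of 13.6% over the members and ran from 4.08% for KMT2C to 56.2% for CBX7. Between P25 and P15, with strain as a covariate, 0 of the 38 members that passed the filter within monoiPSCs, all but CBX7, were DE (edgeR's quasi-likelihood test, as for 0 of 12252 genes, 0.00%), 0 with DESeq2 and 0 with limma. At an unadjusted p under 0.05 there were 2 members, which is 5.26%, against 9.34% of all genes. SMARCA1 was higher at P25 (log2 fold change 0.45, standard error 0.16, unadjusted p = 0.0317, adjusted p = 0.51) and SMARCA2 lower (log2 fold change -0.52, standard error 0.19, unadjusted p = 0.0352, adjusted p = 0.51). The log2 fold change was below 0 in 29 of the 38 members, which is 76.3% against 51.5% of all genes tested. Its median was -0.12 against -0.01 for all genes tested.

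Between the LSD1 and FD2M1 lines, with passage as a covariate, 0 of 38 members were DE by the same test (0.00% of all genes), 0 with DESeq2 and 0 with limma. The log2 fold change was below 0, toward lower levels in LSD1, in 30 of the 38 members. This is 78.9% against 48.9% of all genes tested, and the median was -0.18 against 0.01 for all genes. At an unadjusted p under 0.05 there were 6 members, which is 15.8%, against 14.2% of all genes. These were SUZ12, RBBP7, KDM2B, SMARCC1, SMARCA5 and CECR2, all lower in LSD1, with log2 fold changes from -0.59 for SUZ12 to -0.41 for CECR2. The lowest unadjusted p was that of KDM2B (log2 fold change -0.58, standard error 0.15, unadjusted p = 0.00782, adjusted p = 0.224), and for SUZ12 the difference was of the same size (log2 fold change -0.59, standard error 0.18, unadjusted p = 0.0169, adjusted p = 0.257). CBX2, found by gene number, had a difference of -0.61 (unadjusted p = 0.00667, adjusted p = 0.222). None of these passed the adjustment over all genes, and with 1 line per strain the line and the strain cannot be told apart. At P15 and P25, the 14 proliferation genes summed to an NRC of 75972 and 79490 in FD2M1 and 58227 and 62336 in LSD1. The part of proliferation in the lower levels of LSD1 was not tested.

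**Figure D5:**
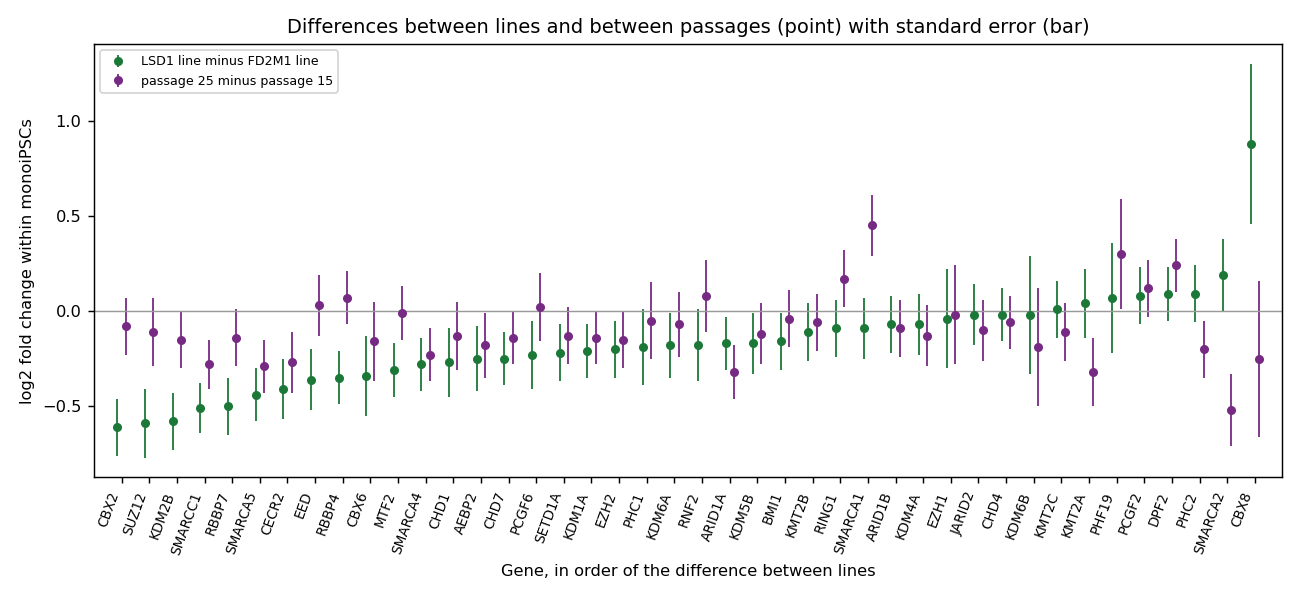
log2 fold change within the monoiPSCs for each gene, with its standard error as a bar, between the lines (green, LSD1 minus FD2M1) and between the passages (purple, P25 minus P15), in order of the difference between lines. Most green points lie below 0, from -0.61 for CBX2 to 0.88 for CBX8, and the purple points run from -0.52 for SMARCA2 to 0.45 for SMARCA1.

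Whether the change from neoSFs to monoiPSCs differed between the strains was tested with an interaction of strain and cell type, in which 1 neoSF library per strain is taken to vary like the passages of a line. No member passed at an adjusted p of 0.05 (0 of 39 with edgeR, against 0.0841% of all genes, and 0 with DESeq2). At an unadjusted p under 0.05 there were 3 members, which is 7.69% against 9.08% of all genes. These were JARID2, whose log2 fold change was 1.00 lower in LSD1 (unadjusted p = 0.0146, adjusted p = 0.38), PHF19 (difference of log2 fold changes 1.67, unadjusted p = 0.0278, adjusted p = 0.461) and PCGF6 (difference of log2 fold changes 1.11, unadjusted p = 0.0189, adjusted p = 0.403). In each of the 3 genes the neoSF libraries stood further apart than the lines did, with an NRC of 420.1 and 821.0 for JARID2, 225.2 and 74.7 for PHF19 and 280.0 and 109.2 for PCGF6.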

How the data were processed

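RNA of 2 neoSF and 4 monoiPSC libraries was sequenced. According to the study's methods, the authors aligned the reads to MonDom5 and RefSeq transcripts with StrandNGS v4 and counted reads per gene after filters on read and mapping quality and removal of non-primary alignments. How reads shared by paralogs were split is not given in the sources used here. In the deposited table of raw counts 87.1% of nonzero values carry a fraction, and its values were handled as estimated counts, rounded for the tests. The other deposited table holds log2 values normalized by the authors with DESeq, each the log2 of the count times 1 factor per library. NRC is 2 to this power, or 0 where the value is 0. An empty line and a note in each file were left out. The identifiers carry the MonDom5 chromosome, and no coordinates or sequences were used. The mMonDom1.pri table from RefSeq held 25831 of the identifiers.

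Genes that reached an NRC of 20 in every library of neoSFs or of monoiPSCs were tested with edgeR 4.0.16 (glmQLFit and glmQLFTest, TMM, R 4.3.3), without a block, and the standard error is the size of the log2 fold change divided by the square root of F. DESeq2 1.42.0 and limma 3.58.1 on the log2 values were alternatives. The edgeR, DESeq2 and limma fits of the main, passage, line and interaction comparisons were also run on simulated data. The other settings, such as RLE scaling or leaving out 1 library, were not simulated. Ratios used counts plus 0.5. The members, the lists and the pairs were chosen with earlier results of these data known. Full values are given for DE members and for both genes of a pair whose log2 ratio differs by at least 2. In the further list of chromatin genes, the DE genes with the highest and lowest change of each complex or family are named. Further genes are given by their values without a rule. The monoiPSCs of each strain were made from the neoSF culture of that strain, which pairs the libraries, while deviations of paired libraries from their group means correlated by only -0.02 to 0.08 across genes.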

Additional observations from a re-analysis of the deposited data

Results flagged for a closer look

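Of 43 genes looked at in the 4 monoiPSC libraries, 1 had a library far from the other three. ARID1B had an NRC of 2066 in LSD1 at P25 and 2279 to 2294 in the other libraries, a gap of 0.939 of the range, above the critical value of Dixon's test for 4 samples. Chance gives such a gap in about 1 of 20 groups of 4.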

How the results depend on the processing

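Of the 22 DE genes counted with those found by gene number, 17 kept their call under every alternative run and none changed direction. The exceptions were RBBP7, PCGF2, SMARCC1, CBX6 and KDM6B. The count of DE members was 13 to 19 higher and 3 to 4 lower without 1 library, 13 and 4 with RLE scaling, DESeq2 or limma, and 18 higher with the genes found by gene number, which was added after seeing the data. With strain as a replicate block, pairing each line with its neoSFs, it was 16 and 4, and no call of a member changed. Of all genes tested, 3171 were DE and higher and 2829 DE and lower in the main run. These counts were 3042 and 2939 with RLE scaling, 3134 and 2955 with DESeq2, and 3005 and 3021 with limma. In these alternatives 13 members instead of 16 were DE and higher. The lead of the members over all genes in the share DE and higher was thus smaller there. The median log2 fold change of the members was 0.62 to 0.95 without 1 library, the highest without the FD2M1 neoSFs, whose cause was not tested. DESeq2 called 115 genes for passage, 192 for line and 304 for the interaction, against 0, 0 and 11 with edgeR, and without 1 library edgeR called 0 to 207 genes for passage and 0 to 41 for line. Genes near 0 changed sign: with limma, PHC2 was at -0.03 and CHD1 at -0.01, and without 1 library the log2 fold change ran from -0.06 to 0.56 for CBX7, -0.42 to 0.51 for CBX8, -0.01 to 0.19 for PHC2, -0.09 to 0.07 for SETD1A and -0.18 to 0.41 for CHD1. The log2 ratio difference ran from -0.10 to 1.40 for MTF2 over PHF19 and from -0.07 to 0.08 for RNF2 over RING1. The neoSF libraries are the shallower ones, so changes of low genes such as CBX7, CBX8 and KDM6B are the least precise.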
